A study of Mus musculus with 6 samples.

Results

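Macrophages clear dying cells with a small set of receptors, bridging proteins and signalling adaptors, and 10 genes of that set (Axl, Mertk, Tyro3, Timd4, Lrp1, Itgav, Gas6, Pros1, Mfge8 and Elmo1) were followed through sorted splenic macrophages of mice with and without T-cell acute lymphoblastic leukemia (T-ALL). They were chosen by name, and all 10 were found by Entrez identifier among the 16058 genes of the deposited files. The spleens came from C57BL/6 mice aged 6 to 8 weeks. In the T-ALL group, GFP+ leukemia cells taken from leukemic mice had been transplanted without irradiation (1000000 cells per mouse), and macrophages were sorted at day 15. The normal group is labelled control and was sorted at day 0, so leukemia, transplantation and day of sorting cannot be told apart. In each state, 3 subsets were separated by the surface antigens Ly6c and F4/80, namely Ly6chiF4/80lo, Ly6cloF4/80lo and Ly6cloF4/80hi, and each gave 1 RNA-seq library, so that there were 3 T-ALL and 3 normal libraries. All values below are FPKM, fragment numbers scaled to transcript length and library size, and a gene missing from a library's file was taken as 0 FPKM.

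A dying cell exposes phosphatidylserine on its surface. Axl, Mertk and Tyro3, the TAM family of receptor tyrosine kinases, do not touch this lipid themselves: the secreted proteins Gas6 and protein S (encoded by Pros1) hold the lipid at one end and the receptor at the other. Tim-4 (encoded by Timd4) binds the lipid directly, Mfge8 bridges it to integrins that contain the alpha-v chain (encoded by Itgav), Lrp1 is a large scavenger receptor that takes up many ligands, and Elmo1 works with Dock1 to activate Rac and fold the membrane around the cargo. In the spleen, the red pulp macrophages, which have high F4/80, are known for removing senescent red blood cells.

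The libraries held 6670000 to 8690000 fragments, as estimated from the spacing of the lowest FPKM values, and listed 14225 to 14628 genes. Whether different subsets were taken from different mice is not given in the labels, and p-values here cover only the spread between the sorted fractions, which may be technical. The sort genes were highest in the gates named for them: Ly6c2 was at 1405 FPKM in T-ALL and 482 FPKM in normal Ly6chiF4/80lo and at most 21.4 FPKM in the other 4 libraries, and Adgre1, which encodes F4/80, was at 234 FPKM in T-ALL and 529 FPKM in normal Ly6cloF4/80hi and at most 86.7 FPKM elsewhere. Transcripts of other cells were present in the gates. Summed over 8 neutrophil genes, T-ALL Ly6chiF4/80lo had 43446 FPKM and normal Ly6chiF4/80lo 13005 FPKM, against 109 to 377 FPKM in the other 4 libraries. The sum of 16 erythroid genes was 37363 FPKM in T-ALL Ly6cloF4/80hi, which was 6.50% of that library's FPKM sum, against 4581 FPKM (0.926%) in normal Ly6cloF4/80hi. Over 7 plasma cell genes the sum was 14659, 1738 and 1691 FPKM in T-ALL Ly6chiF4/80lo, Ly6cloF4/80lo and Ly6cloF4/80hi. In the normal libraries of the same subsets it was 5860, 763 and 476 FPKM. The part these cells play in the values of the member genes, and of the other genes named below, was not tested. In these bulk libraries fewer cells of a type and less RNA per cell cannot be told apart.

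In T-ALL against normal macrophages, the receptors Axl, Mertk and Timd4 fell, and the other tested member genes did not pass the test. In single libraries Axl was at 28.3% to 32.9% of its normal level in each subset. The same receptors were many times higher in Ly6cloF4/80hi than in both F4/80lo subsets, in T-ALL as in normal mice. Pros1, the other bridging protein for the TAM receptors, was at 26.3% of normal in T-ALL Ly6chiF4/80lo and above normal in the other T-ALL libraries, and Lrp1 was at 99.2% of normal in T-ALL Ly6cloF4/80lo, 33.5% in Ly6chiF4/80lo and 31.0% in Ly6cloF4/80hi.

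**Figure D1:**
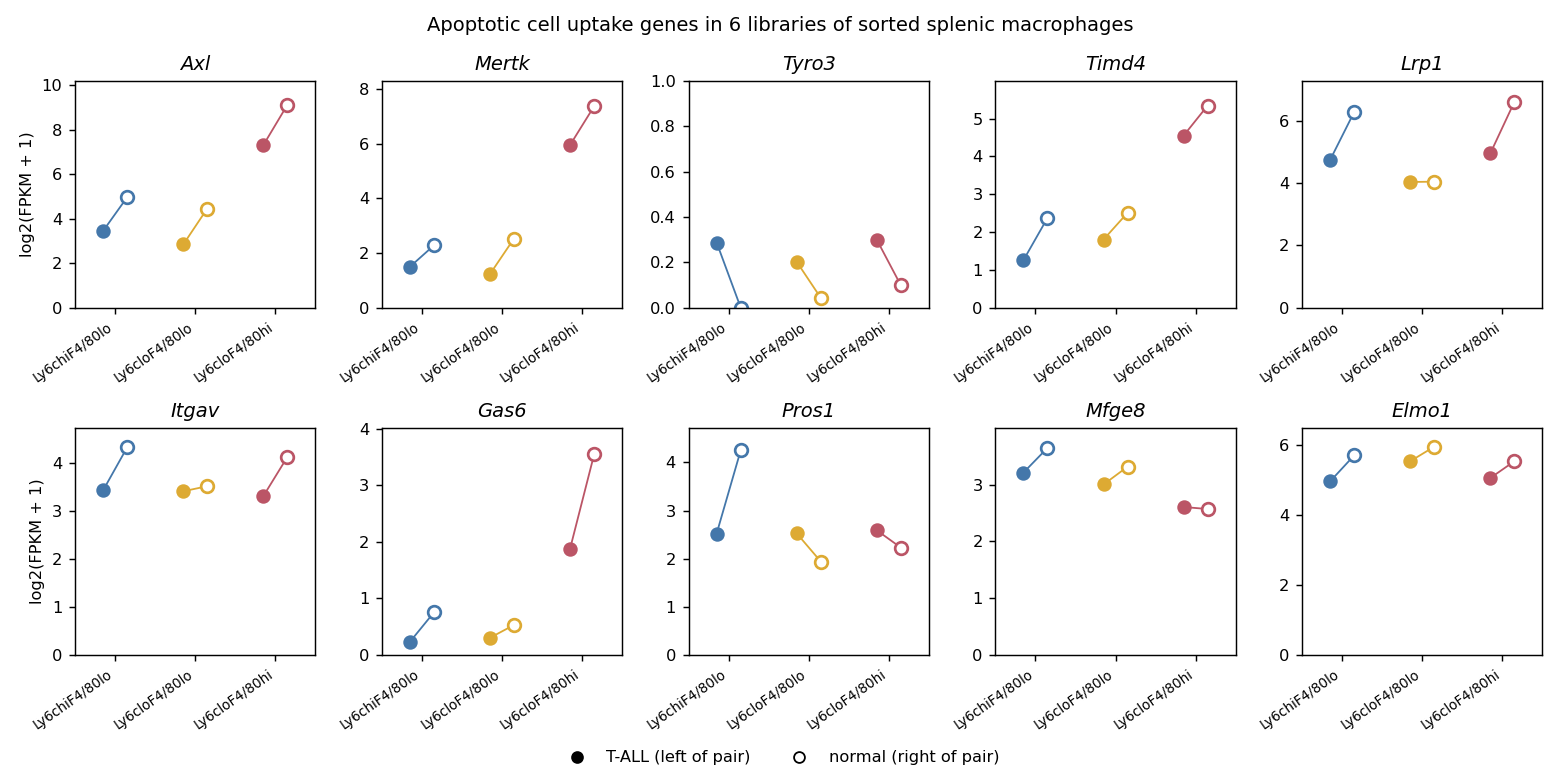
Level of the 10 genes in each library, as log2(FPKM + 1) on the vertical axis, with the 3 subsets along the horizontal axis and a panel with its own scale per gene. Filled points on the left of each pair are T-ALL and open points on the right are normal, 1 library each; Axl, Mertk, Timd4 and Gas6 are highest in Ly6cloF4/80hi in both states, and Pros1 and Mfge8 are the genes whose pairs do not all slope the same way (Mfge8 had 5.09 FPKM in T-ALL and 4.94 FPKM in normal Ly6cloF4/80hi).

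Axl, the TAM receptor known for engaging Gas6, had 9.94, 6.15 and 158 FPKM in T-ALL Ly6chiF4/80lo, Ly6cloF4/80lo and Ly6cloF4/80hi, against 30.2, 20.96 and 557 FPKM in the normal libraries of the same subsets. Every T-ALL library was below its normal partner, although the states overlap because T-ALL Ly6cloF4/80hi lies above the F4/80lo libraries of normal mice. The difference over the 3 subsets was -1.65 on the log2(FPKM + 1) scale (SE 0.14, adjusted p = 0.00832, limma with subset as a block, 3 libraries per state), a 3.13-fold decrease. That scale understates changes of genes with low values. Within subsets, where there is 1 library per state and no test, the T-ALL to normal ratio of FPKM was 0.329 (95% interval 0.287 to 0.376) in Ly6chiF4/80lo, 0.293 (0.252 to 0.343) in Ly6cloF4/80lo and 0.284 (0.275 to 0.292) in Ly6cloF4/80hi. These exact intervals, and those for ratios below, cover counting error only. The 300 bases around the RefSeq start site of Axl (250 before to 50 after, GRCm38.p6, chr7:25788684-25788983, minus strand) are shown with those of Mertk, Timd4 and Gas6. Gas6 entered the test only through its level in Ly6cloF4/80hi, so its place beside the receptors is not a result. Capitals mark a match to one of the motifs described further on.

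Axl: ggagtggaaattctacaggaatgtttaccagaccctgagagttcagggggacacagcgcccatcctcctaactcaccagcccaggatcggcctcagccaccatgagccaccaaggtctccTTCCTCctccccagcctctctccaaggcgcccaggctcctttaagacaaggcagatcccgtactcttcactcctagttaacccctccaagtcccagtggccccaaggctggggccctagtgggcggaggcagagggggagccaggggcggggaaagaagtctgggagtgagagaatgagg
Mertk: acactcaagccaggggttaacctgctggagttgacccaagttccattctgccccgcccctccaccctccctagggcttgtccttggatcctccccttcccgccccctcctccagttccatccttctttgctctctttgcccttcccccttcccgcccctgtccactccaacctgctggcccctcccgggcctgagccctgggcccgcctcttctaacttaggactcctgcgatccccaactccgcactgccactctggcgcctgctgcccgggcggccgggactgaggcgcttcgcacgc
Timd4: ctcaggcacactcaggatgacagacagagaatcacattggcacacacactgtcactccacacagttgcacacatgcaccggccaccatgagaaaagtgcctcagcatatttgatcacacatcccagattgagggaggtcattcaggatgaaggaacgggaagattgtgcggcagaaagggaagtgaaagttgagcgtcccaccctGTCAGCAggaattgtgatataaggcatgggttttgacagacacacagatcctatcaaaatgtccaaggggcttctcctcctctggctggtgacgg
Gas6: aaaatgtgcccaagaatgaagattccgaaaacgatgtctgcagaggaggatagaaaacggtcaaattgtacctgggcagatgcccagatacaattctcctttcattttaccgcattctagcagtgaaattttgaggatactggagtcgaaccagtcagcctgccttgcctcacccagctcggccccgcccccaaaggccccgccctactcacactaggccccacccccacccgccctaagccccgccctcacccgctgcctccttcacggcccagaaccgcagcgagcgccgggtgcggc

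The Mertk window lies at chr2:128698665-128698964 (plus strand), that of Timd4 at chr11:46810549-46810848 (plus strand) and that of Gas6 at chr8:13494486-13494785 (minus strand), all in the same build and written 5′ to 3′ along the gene.

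Mertk, the TAM receptor that binds both Gas6 and protein S and is a standard marker of mature tissue macrophages, had 1.81, 1.34 and 60.8 FPKM in T-ALL Ly6chiF4/80lo, Ly6cloF4/80lo and Ly6cloF4/80hi, against 3.84, 4.76 and 164 FPKM in the normal libraries. It too was lower in T-ALL in each subset, and both T-ALL F4/80lo libraries lay below all normal libraries. The decrease over subsets was 2.24-fold (log2 -1.17, SE 0.18, adjusted p = 0.0168, limma). In the F4/80lo libraries the Mertk level rests on about 52 and 48 fragments in T-ALL and 123 and 162 fragments in normal mice, and the ratio intervals there were 0.334 to 0.656 in Ly6chiF4/80lo and 0.197 to 0.386 in Ly6cloF4/80lo. Without either of the Ly6cloF4/80hi libraries the Mertk difference was -1.04 and no longer passed (adjusted p = 0.0666 without the T-ALL library and 0.0791 without the normal one, limma).

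Tyro3, the TAM receptor known best from the nervous system, was close to the limit of detection. It had 0.22, 0.15 and 0.23 FPKM in T-ALL Ly6chiF4/80lo, Ly6cloF4/80lo and Ly6cloF4/80hi, against 0, 0.03 and 0.07 FPKM in the normal libraries, and was too low to enter the test. These are about 7, 6 and 9 fragments in T-ALL and 0, 1 and 2 in normal mice, where 3 fragments, the limit that a count of 0 allows, correspond to 0.0905 FPKM in normal Ly6chiF4/80lo. The T-ALL libraries all lay above the normal libraries, a separation that 13.8% of the tested genes also showed. Over the subsets together, 22 fragments in T-ALL against 3 in normal mice give a ratio per depth of 7.09 (exact 95% interval 2.13 to 37.0, counting error only). When every gene was tested whatever its level, the Tyro3 difference was 0.22 on the log2(FPKM + 1) scale and did not pass (SE 0.06, adjusted p = 0.108, limma).

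Taken per length, Axl transcripts made up most of the TAM receptor RNA in every library. The summed level of the 3 receptors was 11.97, 7.64 and 219 FPKM in T-ALL Ly6chiF4/80lo, Ly6cloF4/80lo and Ly6cloF4/80hi, against 34.1, 25.8 and 721 FPKM in normal mice. Axl accounted for 83.0%, 80.5% and 72.1% of that sum in T-ALL and for 88.7%, 81.4% and 77.2% in normal mice. The ratio of Axl to Mertk was lower in Ly6cloF4/80hi (2.60 in T-ALL and 3.40 in normal mice) than in Ly6chiF4/80lo (5.49 in T-ALL and 7.88 in normal mice), with Ly6cloF4/80lo between them (4.59 in T-ALL and 4.40 in normal mice). No test was made of these shares.

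Timd4, the direct phosphatidylserine receptor, had 1.38, 2.48 and 22.4 FPKM in T-ALL Ly6chiF4/80lo, Ly6cloF4/80lo and Ly6cloF4/80hi, against 4.16, 4.68 and 39.6 FPKM in the normal libraries. It was lower in T-ALL in each subset, by 1.83-fold over subsets (log2 -0.87, SE 0.16, adjusted p = 0.0265, limma). The Timd4 call did not pass in 8 of 14 alternative analyses, among them 5 of the 6 that left out 1 library. It was kept without T-ALL Ly6cloF4/80lo (adjusted p = 0.0496), and without 1 of the other libraries the adjusted p lay between 0.0529 (normal Ly6cloF4/80lo) and 0.0982 (normal Ly6cloF4/80hi), with log2 differences of -0.96 to -0.75 (limma). Leaving out either library of a subset gave the same difference, so these fits are not 6 separate checks.

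Lrp1 had 25.96, 15.5 and 30.2 FPKM in T-ALL Ly6chiF4/80lo, Ly6cloF4/80lo and Ly6cloF4/80hi, against 77.4, 15.6 and 97.4 FPKM in the normal libraries. The Ly6cloF4/80lo libraries were nearly equal, and in the other pairs T-ALL was far below normal. The ratio of T-ALL to normal was 0.335 (0.321 to 0.351) in Ly6chiF4/80lo, 0.992 (0.931 to 1.06) in Ly6cloF4/80lo and 0.310 (0.299 to 0.322) in Ly6cloF4/80hi. Over subsets the difference did not pass (log2 -1.07, SE 0.33, adjusted p = 0.0793, limma). It passed when either Ly6cloF4/80lo library was left out (log2 -1.60, adjusted p = 0.0136 without the T-ALL library and 0.0141 without the normal one, limma), and a difference in state change between subsets cannot be tested with 1 library each.

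Itgav, the alpha-v integrin chain, had 9.83, 9.67 and 8.96 FPKM in T-ALL Ly6chiF4/80lo, Ly6cloF4/80lo and Ly6cloF4/80hi, against 19.2, 10.5 and 16.6 FPKM in the normal libraries. It was the member gene whose T-ALL libraries all lay below all normal ones, a separation that 10.9% of the tested genes also showed. The T-ALL libraries were close to one another, and the normal Ly6cloF4/80lo library lay just above them. The difference of -0.61 on the log2 scale did not pass (SE 0.19, adjusted p = 0.0852, limma). Itgb3, which encodes the beta-3 partner chain of alpha-v, rose in the same libraries: it had 10.8, 9.88 and 5.01 FPKM in T-ALL, against 5.29, 4.45 and 1.84 FPKM in normal mice (log2 1.00, SE 0.15, adjusted p = 0.0185, limma). Itgb3 is also a platelet gene, and the sum of 8 megakaryocyte and platelet genes was 26.5, 51.2 and 57.95 FPKM in T-ALL, against 19.0, 14.9 and 18.1 FPKM in normal mice; its part in the Itgb3 level was not tested.

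**Figure D2:**
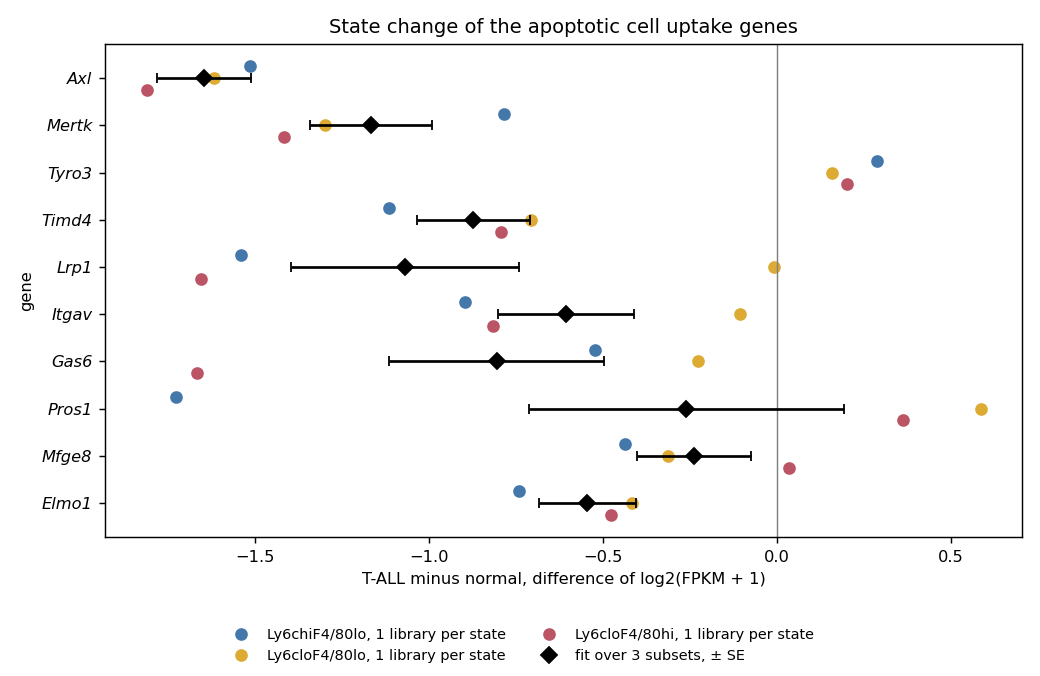
Difference between T-ALL and normal libraries in log2(FPKM + 1), on the horizontal axis, for each of the 10 genes. Coloured points are the 3 subsets with 1 library per state, black diamonds are the limma estimate over subsets with its standard error, absent for Tyro3, which was not tested; the Axl points lie close together between -1.81 and -1.51, and those of Pros1 lie on both sides of 0.

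Of the bridging proteins, Gas6 was found mainly in Ly6cloF4/80hi. It had 0.17, 0.23 and 2.68 FPKM in T-ALL Ly6chiF4/80lo, Ly6cloF4/80lo and Ly6cloF4/80hi, against 0.68, 0.44 and 10.7 FPKM in the normal libraries. Gas6 entered the test through the Ly6cloF4/80hi libraries alone, since it stayed below 1 FPKM in the others, where it rests on about 3 and 5 fragments in T-ALL and 13 and 9 in normal mice. The T-ALL to normal ratio was 0.251 in Ly6cloF4/80hi (95% interval 0.183 to 0.334). Stromal and endothelial cells are known to make Gas6 as well. Of 13 genes of those cells 9 stayed under 1 FPKM in all 6 libraries, Tek, Lyve1, Col1a1, Col3a1, Cxcl12 and Ccl19 were at 0 in at least 1 library, and the sum was 94.0 FPKM in T-ALL and 117 FPKM in normal Ly6cloF4/80hi. The part of such cells in the Gas6 level was not tested. Over the 3 subsets the Gas6 difference did not pass (log2 -0.81, SE 0.31, adjusted p = 0.124, limma).

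Pros1 had 4.74, 4.75 and 5.01 FPKM in T-ALL Ly6chiF4/80lo, Ly6cloF4/80lo and Ly6cloF4/80hi, against 18.0, 2.83 and 3.68 FPKM in the normal libraries. The T-ALL libraries were nearly level, and normal Ly6chiF4/80lo stood apart above the other 5 libraries. The ratio of T-ALL to normal was 0.263 (0.210 to 0.325) in Ly6chiF4/80lo, 1.68 (1.25 to 2.26) in Ly6cloF4/80lo and 1.36 (1.05 to 1.79) in Ly6cloF4/80hi. Over subsets the estimate was -0.26 (SE 0.45, adjusted p = 0.706, limma), and it changed sign to 0.47 when either Ly6chiF4/80lo library was left out. Set side by side, Gas6 made up 3.46%, 4.62% and 34.9% of the summed Gas6 and Pros1 level in T-ALL and 3.63%, 13.5% and 74.4% in normal mice.

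Mfge8, the bridge to alpha-v integrins, had 8.27, 7.02 and 5.09 FPKM in T-ALL Ly6chiF4/80lo, Ly6cloF4/80lo and Ly6cloF4/80hi, against 11.5, 8.97 and 4.94 FPKM in the normal libraries. Its levels overlapped between the states. Dendritic cells can also express Mfge8. The sum of 10 dendritic cell genes was 154, 280 and 158 FPKM in T-ALL, against 471, 529 and 226 FPKM in normal mice, so that this sum was lower in T-ALL in each subset. The part of dendritic cells in the Mfge8 level was not tested. The Mfge8 difference did not pass (log2 -0.24, SE 0.16, adjusted p = 0.340, limma), and its ratio in Ly6cloF4/80hi was 1.03 (0.753 to 1.40). Elmo1, the Rac-activating adaptor, had 29.9, 45.0 and 32.1 FPKM in T-ALL, against 50.7, 60.4 and 45.0 FPKM in normal mice. It was lower in T-ALL in each subset, with ratios of 0.590 (0.548 to 0.636), 0.745 (0.703 to 0.790) and 0.712 (0.665 to 0.762). Its adjusted p lay just on the far side of the threshold (log2 -0.55, SE 0.14, adjusted p = 0.0531, limma), and it passed in 4 of 14 alternative analyses, with values down to 0.0349.

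Counted together, 3 of the 9 tested member genes passed as lower in T-ALL and 0 as higher, 6 did not pass, and Tyro3 was not tested. Of all 11616 tested genes, 12.1% passed, 8.20% as higher and 3.94% as lower. Lower values in T-ALL in all 3 subsets were found for 7 of the 10 genes (Axl, Mertk, Timd4, Lrp1, Itgav, Gas6 and Elmo1), beside 30.0% of the tested genes. Higher values in all 3 subsets were found for Tyro3, beside 27.9% of the tested genes. Among the member genes that reached 5 FPKM in 1 of the 2 libraries of a subset, those at least 2-fold lower in T-ALL were 3 of 6 in Ly6chiF4/80lo (Axl, Lrp1 and Pros1; background 5.67%), 1 of 5 in Ly6cloF4/80lo (Axl; 2.12%) and 4 of 9 in Ly6cloF4/80hi (Axl, Mertk, Lrp1 and Gas6; 7.80%). None was at least 2-fold higher in any subset, beside 8.63%, 6.51% and 11.6% of the genes at that level in the subsets in that order; this is a count of ratios between single libraries, with no test.

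Red pulp macrophage genes were lower in the same libraries. Of 12 genes characteristic of red pulp macrophages, 9 passed as lower in T-ALL and 0 as higher, with a median log2 difference of -1.30 over the 12, beside -0.03 over all tested genes. Their summed level was 588, 524 and 4074 FPKM in T-ALL Ly6chiF4/80lo, Ly6cloF4/80lo and Ly6cloF4/80hi, against 1265, 827 and 12172 FPKM in normal mice. Of 12 general macrophage genes 1 passed as higher and 3 as lower, and their median log2 ratio of T-ALL to normal was -0.89 in Ly6chiF4/80lo, -0.15 in Ly6cloF4/80lo and -0.91 in Ly6cloF4/80hi. Cell cycle genes moved the other way, with 13 of 14 passing as higher in T-ALL, and so did erythroid genes, with 9 of 16.

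The state comparison was also run relative to that macrophage level. When the libraries of each subset were rescaled so that the general macrophage list had a median change of 0, the Axl difference was -1.03 (SE 0.34, adjusted p = 0.0118, limma). This rescaling moves the median of all tested genes to 0.55, and the spread was then estimated as common to all genes at a given level. It raised the median total degrees of freedom to 23232, from 6.23 in the main fit, so its p-values cannot be set beside those above. Under it Mertk (-0.63, adjusted p = 0.133) and Timd4 (-0.35, adjusted p = 0.428) no longer passed, Itgav was at 0.00 (adjusted p = 0.993), and Pros1, Mfge8 and Elmo1 changed sign to 0.30, 0.34 and 0.09 (limma). Relative to the macrophage list of its own subset, the log2 ratio of Axl was -0.71 in Ly6chiF4/80lo, -1.61 in Ly6cloF4/80lo and -0.91 in Ly6cloF4/80hi. No rescaling to the red pulp macrophage genes was made, whose median log2 difference was -1.30 beside -1.65 for Axl. The part that a changed share of macrophages plays in the state differences was not tested.

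Between subsets, Axl, Mertk and Timd4 were higher in Ly6cloF4/80hi than in Ly6chiF4/80lo, and Mfge8 was lower. On the log2(FPKM + 1) scale over both states, Mertk differed by 4.78 (SE 0.22, adjusted p = 0.000416), Axl by 4.01 (SE 0.17, adjusted p = 0.000404) and Timd4 by 3.14 (SE 0.20, adjusted p = 0.000749), each in limma with state as a block and 2 libraries per subset. In all of these both Ly6cloF4/80hi libraries lay above both Ly6chiF4/80lo libraries. The share of all tested genes with such a separation was not counted. Mfge8 averaged 5.01 ± 0.11 FPKM in Ly6cloF4/80hi and 9.91 ± 2.31 FPKM in Ly6chiF4/80lo (SD, n = 2 each; log2 -0.84, SE 0.20, adjusted p = 0.0450, limma). The Mfge8 call was lost in 10 of the 14 alternative analyses, including each of the 6 that left out 1 library. Gas6 had passed the filter on low values only through the Ly6cloF4/80hi libraries, so it had to be higher there, and its subset differences are given as levels with no test. Of the 8 other tested member genes, 3 were higher and 1 lower, where 12.8% of all tested genes passed (7.10% higher and 5.68% lower).

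The same receptors were higher in Ly6cloF4/80hi than in Ly6cloF4/80lo, a comparison that shares its Ly6cloF4/80hi libraries with the one above. The log2 difference of Ly6cloF4/80hi from Ly6cloF4/80lo was 4.78 for Mertk (SE 0.22, adjusted p = 0.000582), 4.57 for Axl (SE 0.17, adjusted p = 0.000582) and 2.79 for Timd4 (SE 0.20, adjusted p = 0.00148), all by limma. Among the 11616 tested genes Mertk had the highest difference in this comparison and Axl was number 3, while Axl had the lowest p. Here 3.56% of all tested genes passed, 2.66% higher and 0.904% lower, against 3 member genes higher and 0 lower of the 8 tested without Gas6. Lrp1 averaged 63.8 ± 47.5 FPKM in Ly6cloF4/80hi and 15.5 ± 0.09 FPKM in Ly6cloF4/80lo (SD, n = 2 each). The difference did not pass (log2 1.75, SE 0.40, adjusted p = 0.0760, limma). It passed without T-ALL Ly6cloF4/80lo (log2 2.54, adjusted p = 0.00491, limma).

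**Figure D3:**
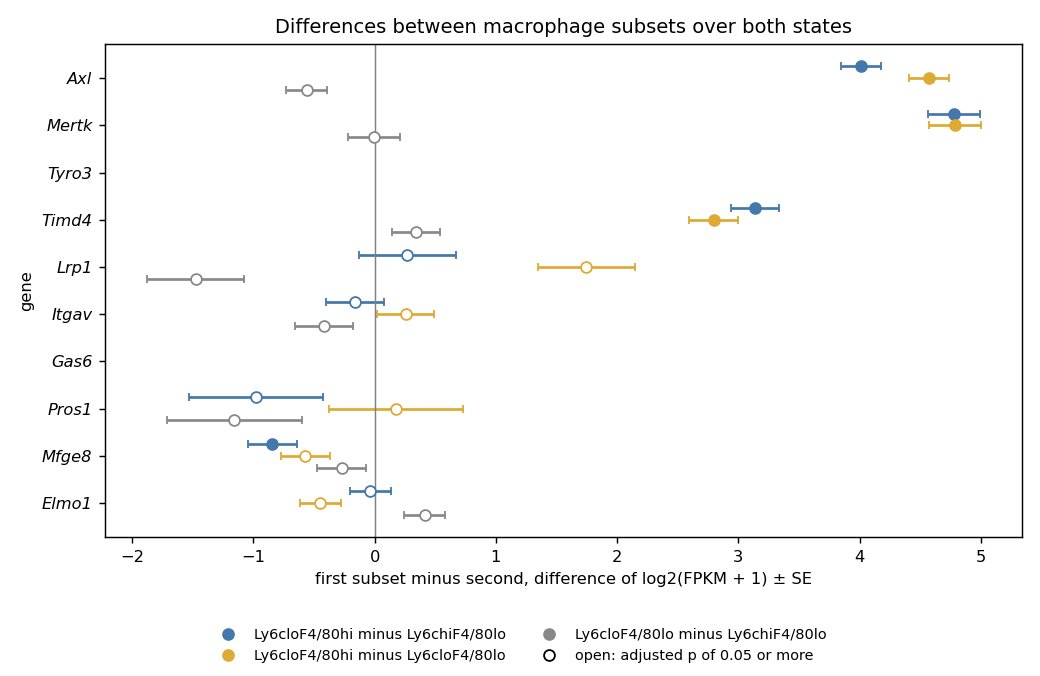
Differences in log2(FPKM + 1) between subsets over both states, on the horizontal axis with standard errors from limma, for each gene but Tyro3, which was not tested, and Gas6, which is given as levels only. Filled points passed at an adjusted p under 0.05 and open points did not; Axl, Mertk and Timd4 lie between 2.79 and 4.78 in both comparisons with Ly6cloF4/80hi, and no gene is filled for Ly6cloF4/80lo minus Ly6chiF4/80lo.

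In Ly6cloF4/80lo against Ly6chiF4/80lo, 0 of the 8 member genes tested without Gas6 passed (limma), beside 4.73% of all tested genes (2.68% higher and 2.05% lower). Of those 8, Axl and Lrp1 had an unadjusted p under 0.05. The nearest were Lrp1 (log2 -1.48, SE 0.40, adjusted p = 0.0921) and Axl (log2 -0.56, SE 0.17, adjusted p = 0.107), both lower in Ly6cloF4/80lo in both states. Lrp1 had 15.5 and 15.6 FPKM in T-ALL and normal Ly6cloF4/80lo, against 25.96 and 77.4 FPKM in T-ALL and normal Ly6chiF4/80lo. For Axl, Mertk and Timd4 Ly6cloF4/80hi thus came first in the order of levels, and the difference between the F4/80lo subsets did not pass. For Itgav, Pros1 and Elmo1 no pair of subsets passed. Lrp1 passed as lower in Ly6cloF4/80lo when T-ALL Ly6cloF4/80lo was left out (log2 -2.27, adjusted p = 0.0197, limma). When T-ALL Ly6chiF4/80lo was left out, Pros1 passed as lower than in normal Ly6chiF4/80lo both in Ly6cloF4/80hi (log2 -2.08, adjusted p = 0.0137) and in Ly6cloF4/80lo (log2 -2.26, adjusted p = 0.0359, limma).

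Levels in the F4/80lo libraries were a small share of those in Ly6cloF4/80hi of the same state. For Axl the share was 6.30% in T-ALL and 5.43% in normal Ly6chiF4/80lo, and 3.89% in T-ALL and 3.76% in normal Ly6cloF4/80lo. For Mertk it was 2.98% in T-ALL and 2.34% in normal Ly6chiF4/80lo, and 2.2% in T-ALL and 2.90% in normal Ly6cloF4/80lo. Red pulp macrophage genes had shares of the same order, with medians over 12 genes of 10.5% in T-ALL and 6.13% in normal Ly6chiF4/80lo and of 7.32% in T-ALL and 5.90% in normal Ly6cloF4/80lo. Whether the low levels in the F4/80lo gates belong to red pulp macrophages within them was not tested.

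**Figure D4:**
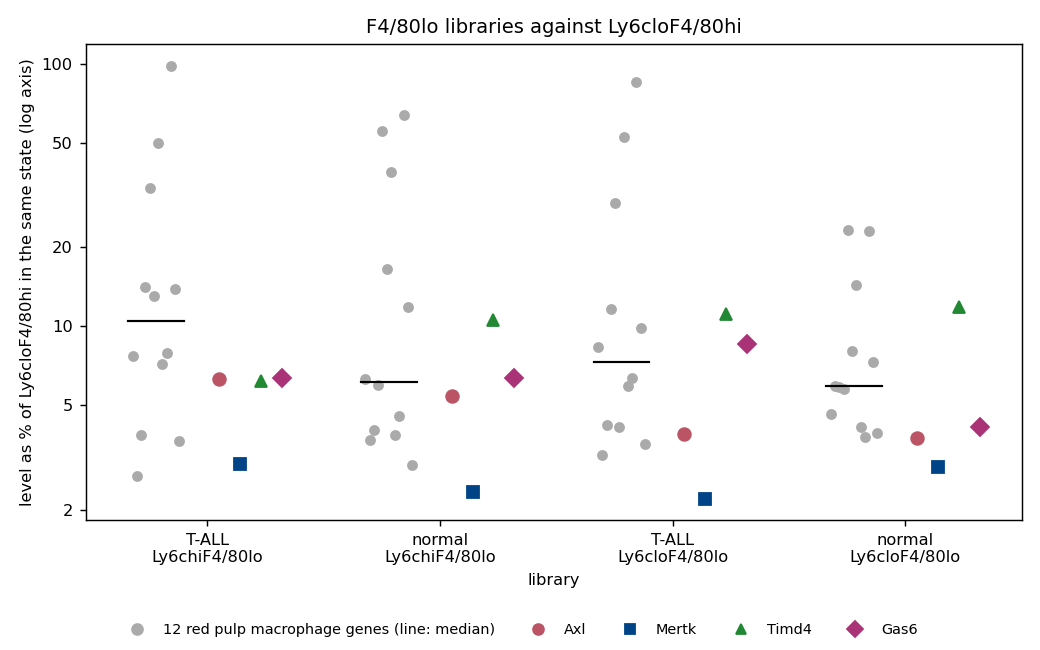
Level in each F4/80lo library as a percentage of the Ly6cloF4/80hi level of the same state, on a log axis, T-ALL left of normal for each subset. Grey points are 12 red pulp macrophage genes with their median as a line, and coloured symbols are Axl, Mertk, Timd4 and Gas6; Mertk lies at 2.2% to 2.98%, below the median of the red pulp genes in each library.

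The genes whose levels over the 6 libraries ran closest to each receptor were taken from 7720 tested genes with at least 10 FPKM in 1 library, by the root mean square difference of log2(FPKM + 1) after centring each gene on its own mean. For Axl they were Mrc1 (the mannose receptor; difference 0.22), Slc40a1 (the iron exporter ferroportin; 0.24) and Abcc3 (0.27), where the Axl pattern itself has a root mean square of 2.2. For Mertk they were Vcam1 (an adhesion molecule; 0.18), C6 (a complement component; 0.18) and C1qa (a chain of complement C1q, which can itself coat dying cells; 0.21). Il18, Gfra2 and Hpgds ran closest to Timd4 (0.17 to 0.25), and Aspa, Tlr4 and Dysf to Gas6 (0.11 each). Closest to Lrp1 were Fcgr3, Itgb5 and Tnfrsf21 (0.30 to 0.32), of which Itgb5 encodes the beta-5 partner chain of alpha-v. Itgb5 had 3.44, 2.49 and 5.62 FPKM in T-ALL Ly6chiF4/80lo, Ly6cloF4/80lo and Ly6cloF4/80hi, against 8.25, 2.34 and 18.3 FPKM in normal mice. Pros1 had no close neighbour, with a difference of 0.34 for the first gene (Crip1) beside a root mean square of 0.74 for Pros1 itself.

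**Figure D5:**
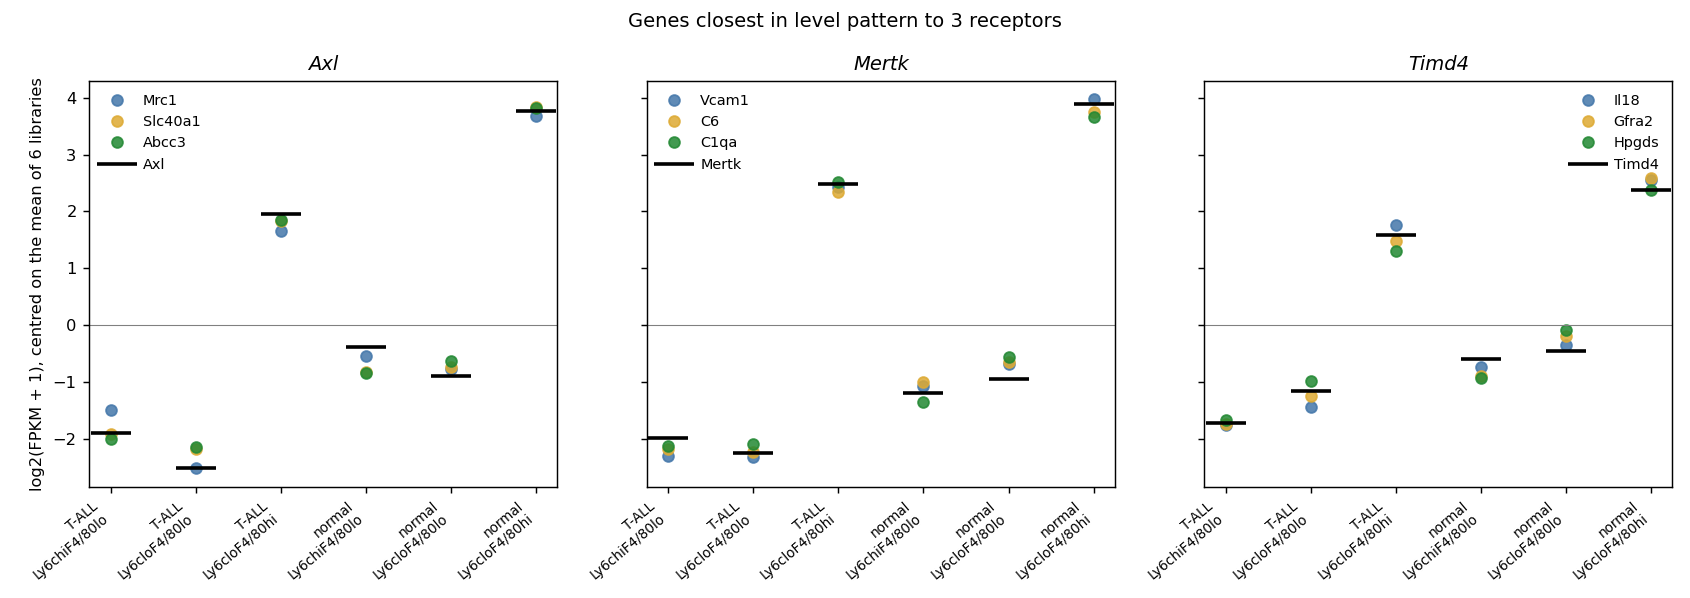
Levels of Axl, Mertk and Timd4 (black bars) and of the 3 genes closest to each (coloured points) in the 6 libraries, as log2(FPKM + 1) minus the gene's mean over the libraries; the 3 T-ALL libraries are on the left of each panel and the 3 normal ones on the right. In each panel the 4 genes are highest in normal Ly6cloF4/80hi and next highest in T-ALL Ly6cloF4/80hi.

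Around these genes, 101 other genes of apoptotic cell uptake were listed, of which 94 were tested. In T-ALL 4 passed as higher, 10 as lower and 80 did not pass, where 12.1% of all tested genes passed (8.20% higher and 3.94% lower), with a median log2 difference of -0.16 beside -0.03 over all tested genes. Of 19 tested receptors and bridging proteins, 1 was higher (Itgb3) and 5 lower. The C1q chains C1qa (log2 -1.15, SE 0.20, adjusted p = 0.0227, limma) and C1qc (log2 -1.04, SE 0.21, adjusted p = 0.0343, limma) fell, as did Stab2, a scavenger receptor that binds phosphatidylserine (log2 -1.0, SE 0.22, adjusted p = 0.0411, limma). C1qa had 45.3, 46.3 and 1156 FPKM in T-ALL Ly6chiF4/80lo, Ly6cloF4/80lo and Ly6cloF4/80hi, against 78.2, 136 and 2567 FPKM in normal mice.

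None of the 18 tested genes of the engulfment machinery, the group of Elmo1 that drives Rac and actin, passed in either direction (limma; 5 had an unadjusted p under 0.05, all lower in T-ALL), beside 12.1% of all tested genes; at this number of genes nothing is read from it. Of 15 genes of phagosome maturation and digestion, 1 fell, Slc29a3, a lysosomal nucleoside transporter (log2 -0.73, SE 0.15, adjusted p = 0.0349, limma). Among 18 genes of the response to cargo, the anti-inflammatory cytokine Il10 rose (log2 1.80, SE 0.32, adjusted p = 0.0241, limma), and so did Odc1, the first enzyme of polyamine synthesis (log2 0.70, SE 0.14, adjusted p = 0.0343, limma), while the cholesterol exporter Abca1 fell (log2 -0.86, SE 0.19, adjusted p = 0.0388, limma). Il10 had 7.58, 4.74 and 6.65 FPKM in T-ALL and 0.31, 1.68 and 1.53 FPKM in normal mice, without overlap, as did 13.8% of the tested genes in that direction. The part of other cells in the gates, such as plasma cells, in the Il10 level was not tested. None of 10 genes that act on TAM ligands or signals passed (limma; 1 had an unadjusted p under 0.05, Pik3r1, lower in T-ALL).

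Among 14 genes for find-me and do-not-eat-me signals, 1 was higher and 3 lower in T-ALL. Cd24a, a do-not-eat-me ligand that B cells and erythroid precursors also express, rose (log2 1.58, SE 0.35, adjusted p = 0.0410, limma). P2ry6, a receptor for nucleotides released by dying cells, fell (log2 -1.26, SE 0.25, adjusted p = 0.0305, limma), as did Gpr132 (log2 -0.78) and Sirpa, the receptor for Cd47 (log2 -0.70, SE 0.16, adjusted p = 0.0407, limma). Sirpa had 115, 110 and 321 FPKM in T-ALL, against 191, 166 and 555 FPKM in normal mice. Between subsets, 17 of the 94 genes were higher and 13 lower in Ly6cloF4/80hi than in Ly6chiF4/80lo, beside 7.10% and 5.68% of all tested genes. In Ly6cloF4/80hi against Ly6cloF4/80lo 13 were higher and 4 lower, beside 2.66% and 0.904%. C1qa, C1qb and C1qc were higher in both comparisons by log2 differences of 4.37 to 5.06, and Nr1h3, which encodes the sterol-sensing nuclear receptor LXR-alpha, was higher by 2.82 and 3.23. Anxa1, a phosphatidylserine-binding protein abundant in neutrophils, was the gene of this list furthest lower in Ly6cloF4/80hi than in Ly6chiF4/80lo (log2 -4.46, SE 0.25, adjusted p = 0.000535, limma), where the neutrophil genes given above were also high.

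The RefSeq start-site windows of the 10 genes, 11 windows of 300 bases since Elmo1 has a pair, were searched on both strands for 6 motifs. The PU.1 core GAGGAA (PU.1 is the main macrophage lineage factor) was in 4 of the 11 windows, those of Axl, Itgav, Mfge8 and Elmo1, and in 28.3% of 32851 mouse windows of the same length. The Axl match begins 130 bases before the start site, on the strand opposite to the gene. The MAF recognition sequence TGCTGAC was in 1 window, that of Timd4, beginning 45 bases before the start site, and in 4.67% of all windows. AP-1 (TGANTCA, 7.81% of all windows), the E-box CACGTG (7.15%), the interferon-stimulated response element (3.44%) and the LXR DR4 element (0.015%) were in none of the 11 windows. The matches did not overlap one another, and no match was found in the Mertk and Gas6 windows shown above. No binding data accompany these libraries, and the matches are a description of the letters alone.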

How the data were processed

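RNA-seq libraries of sorted splenic macrophages, 1 per subset and state, were used as deposited FPKM values. A QIAGEN RNeasy kit and an Illumina HiSeq instrument were used, per the labels' protocols. Per the submitters' processing notes, the authors ran Bowtie2 2.2.5 for alignment and RSEM for quantification; neither the RSEM version nor build and annotation is given there. Entrez identifiers were matched to symbols in a RefSeq table of GRCm38.p6 (16017 of 16058), used for names and start-site windows.

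The test took the 11616 genes that reached 1 FPKM in 2 or more libraries. On the log2(FPKM + 1) scale, limma 3.58.1 (R 4.3.3, statmod 1.5.0) was used for an additive model of subset and state, with a trended and robust prior and 2 residual degrees of freedom. P-values were two-sided and adjusted by Benjamini and Hochberg over all tested genes, with 0.05 as the threshold. In 20 simulated runs of the state comparison, with 200 of 11616 genes changed, 9.10% of the genes passing this threshold were false. In that simulation the adjusted p-values were thus too low, which matters most for calls near the threshold. Its noise was drawn independently for each gene around an additive pattern. The share of false calls in the real libraries is therefore not known. The interaction of subset and state could not be tested. An exact permutation test of 3 against 3 libraries that ignores subset cannot go below p = 0.1. One that swaps states only within subsets has fewer arrangements, so its lowest possible p is higher still. Within subsets, 2-fold differences were counted where either library reached 5 FPKM.

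Depth came from the spacing of low FPKM values of 287 to 324 genes per library with transcripts of 2000 to 8000 bases (GENCODE M21). Tested on 12 simulated libraries, it was at most 0.144% off. The simulation used the same annotated lengths as the estimate, so it does not cover error in those lengths, and the true error may be larger. Fragment numbers assume the longest coding transcript of a gene and are approximate. Ratio intervals are exact conditional binomial intervals at 95%, the limit for a count of 0 is 3 fragments, and both cover counting error only.

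The member genes and all gene lists were chosen with earlier results of these data known, and no list was tested as a set. Genes named beside the members were, per pathway list, up to 4 with the largest change among those that passed and had 5 FPKM in 1 library, and, per member, the 3 closest in pattern. Rows that name no gene were absent, and 41 identifiers without a symbol stayed in the fit. Alternatives were quantile normalization, median-ratio rescaling, rescaling to a general macrophage list, a pseudocount of 0.1, a mean filter at 5 FPKM or none, a plain prior, no block, leaving out each library, and only the 4 libraries compared. Python 3.11.15 with numpy 2.4.6, pandas 2.3.3, scipy 1.17.1 and matplotlib 3.10.9 served for the remaining steps.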

Additional observations from a re-analysis of the deposited data

Results flagged for a closer look

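Pros1, which encodes protein S, moved in opposite directions in different subsets. The ratio of T-ALL to normal FPKM was 0.263 in Ly6chiF4/80lo, 1.678 in Ly6cloF4/80lo and 1.361 in Ly6cloF4/80hi, each with a 95% counting interval that excludes 1. There is 1 library per subset and state, and the difference between subsets was not tested.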

How the results depend on the processing

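For T-ALL against normal, the number of member genes lower was 3 as reported, 1 after rescaling to the general macrophage list, 0 without the subset block and 1 to 4 when single libraries were left out (1 without either Ly6cloF4/80hi library, 4 without T-ALL Ly6cloF4/80lo, where Lrp1 joined). The tested genes passing in all numbered 1410 as reported, 370 with no filter on low values, 161 without the subset block, 3632 after the macrophage rescaling and 283 to 923 without 1 library. In the same terms, Ly6cloF4/80hi against Ly6chiF4/80lo had 1485 as reported, 867 with no filter, 197 without the state block and 617 to 1277 without 1 library; against Ly6cloF4/80lo it had 414, 173, 0 and 127 to 668, and Ly6cloF4/80lo against Ly6chiF4/80lo had 549, 156, 0 and 81 to 718. For Ly6cloF4/80hi against Ly6chiF4/80lo, the 1 gene lower (Mfge8) became 0 with no filter, with no trend and robust prior, without the state block and with only the 4 libraries. The 4 higher became 2 without the state block. In the fits without 1 library the Mfge8 call was also lost, with differences between -1.05 and -0.64. Without T-ALL Ly6chiF4/80lo, Pros1 was called lower instead (log2 -2.08). Against Ly6cloF4/80lo the 4 higher became 0 without the state block. Both counts of 4 include Gas6, which had to differ because of the filter on low values. For Ly6cloF4/80lo against Ly6chiF4/80lo, 0 lower became 1 without T-ALL Ly6chiF4/80lo (Pros1) or T-ALL Ly6cloF4/80lo (Lrp1), a range of 0 to 1. The cause was not tested, except that fits without a block leave the other factor in the residual spread.

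Directions turned for genes that had not passed. The macrophage rescaling put the T-ALL difference of Pros1 at 0.30, Mfge8 at 0.34 and Elmo1 at 0.091. Over the fits without 1 library, the T-ALL difference of Pros1 ranged between -0.68 and 0.47. For Ly6cloF4/80hi against Ly6chiF4/80lo the ranges were -0.17 to 0.71 for Lrp1, -0.38 to 0.057 for Itgav, -2.08 to 0.12 for Pros1 and -0.18 to 0.11 for Elmo1. For Ly6cloF4/80hi against Ly6cloF4/80lo they were -0.12 to 0.63 for Itgav and -0.46 to 0.81 for Pros1. For Ly6cloF4/80lo against Ly6chiF4/80lo they were -0.29 to 0.28 for Mertk and -0.51 to 0.36 for Gas6, which stayed below 1 FPKM in all libraries of these subsets. In the state comparison, a fit without 1 library rests on the other subsets alone, since the partner library then adds nothing to the difference. Leaving out either library of a subset therefore gives the same difference. In the subset comparisons, such a fit assumes that the remaining library of that subset varies like the others.

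No paired analysis was possible because the labels give no replicate numbers; subset already stands as a block in the state comparison. Depth limits Tyro3 in all libraries and Gas6 in the F4/80lo libraries, where values rest on at most 13 fragments. Splits of the calls by direction also moved with scaling: of the 1410 genes passing for state, 952 were higher, against 753 of 1290 under quantile normalization and 3573 of 3632 under the macrophage rescaling; for Ly6cloF4/80hi against Ly6chiF4/80lo, 825 of 1485 were higher, against 663 of 1437 under median-ratio rescaling and 549 of 1288 under quantile normalization.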
